A study of Arabidopsis thaliana with 12 samples.

Results

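Transcripts of 4 enzymes of the Calvin cycle and of sugar phosphate metabolism were followed in Arabidopsis thaliana: phosphoribulokinase (PRK, AT1G32060), sedoheptulose bisphosphatase (SBPASE, AT3G55800), pyruvate orthophosphate dikinase (PPDK, AT4G15530) and the carbohydrate kinase AT1G06730, of the pfkB family. They were chosen as enzymes of this metabolism whose probe the platform's annotation pairs with exactly 1 gene, and they are 4 of the 689 genes that could be named in this way and traced to a locus. Each had 1 probe, and none of them also appeared on a probe shared with other genes. Total RNA was measured on 12 arrays of 3439 probes each. In 6 arrays the RNA came from wild-type plants of the ecotype Wassilevskija kept for 3 h in MS medium with 60 mM sucrose (MS + sucrose, or sucrose arrays for short), and in the other 6 from water-treated wild-type plants of the same ecotype (H2O). The labels give no time for water, and no group had MS or sucrose alone, so sucrose, MS and treatment time cannot be told apart. The labels state neither age nor organ, and they do not say that a group's arrays were hybridised with RNA of different plants. The p-values therefore measure the spread among the arrays alone, and that spread may be technical.

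In the Calvin cycle, Rubisco fixes CO2 onto ribulose 1,5-bisphosphate in the chloroplast stroma, and the carbon is then recycled through triose, hexose and heptulose phosphates. SBPASE removes a phosphate from sedoheptulose 1,7-bisphosphate in this regeneration phase, and PRK uses ATP to make ribulose 1,5-bisphosphate, the acceptor of CO2. Both are switched on in light through thioredoxin, and CP12 binds PRK in the dark. PPDK interconverts pyruvate and phosphoenolpyruvate, and in a C3 plant such as Arabidopsis it links organic and amino acids to gluconeogenesis. The pfkB family holds fructokinases, ribokinase, adenosine kinase and also plastid proteins that act in gene expression. Feeding sugar to plants is known to repress many genes of photosynthesis.

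The intensity scale decides how the members read, so it is given first. Array medians were 0.325 to 0.49 in MS + sucrose and 0.171 to 0.188 in H2O, while the summed intensity of an array ranged from 3172 to 3461. The log2 medians differed by 1.10 (two-sided exact permutation test, p = 0.00216, the lowest possible with 924 splits). The medians of sucrose arrays 1 and 2, 0.479 and 0.49, stood apart from the 0.325 to 0.342 of the other 4. Differences below are log2 MS + sucrose minus H2O from limma after quantile normalization, with p-values adjusted over the whole set of 3439 probes (Benjamini-Hochberg, threshold 0.05), and values as deposited or after median centring are named as such. As deposited, with a floor at 0.0454, the median probe was 0.68 higher in MS + sucrose. That median covers all 3439 probes, with those at the floor on every array at no difference, and lies below the 1.10 of the array medians. Green tissue was present: 4 of the 14 light-harvesting, photosystem and Rubisco genes listed as markers had a probe of their own, and all 4 were above the floor on all 12 arrays, at 1.47 to 45.9 in MS + sucrose and 1.45 to 44.3 in H2O (range of the group means of intensity).

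AT1G06730 and PRK were called higher in MS + sucrose, PPDK did not pass, and SBPASE was listed at 0 throughout. These are 2 of 4 members, both higher, beside 20.5% of all probes called higher and 41.8% called in either direction. SBPASE, at the floor on every array, could not be called. With so few members, the count is not read as a result about them. The calls rest on the scaling: with median centring, which called 16.2% of all probes higher and 30.2% lower, AT1G06730 did not pass and PRK lay at a negative value. As deposited, which called 53.7% of all probes higher, PPDK was among them. AT1G06730 was the member whose difference kept its direction under all 4 scalings that were run (quantile, cyclic loess, as deposited, median centring).

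**Figure D1:**
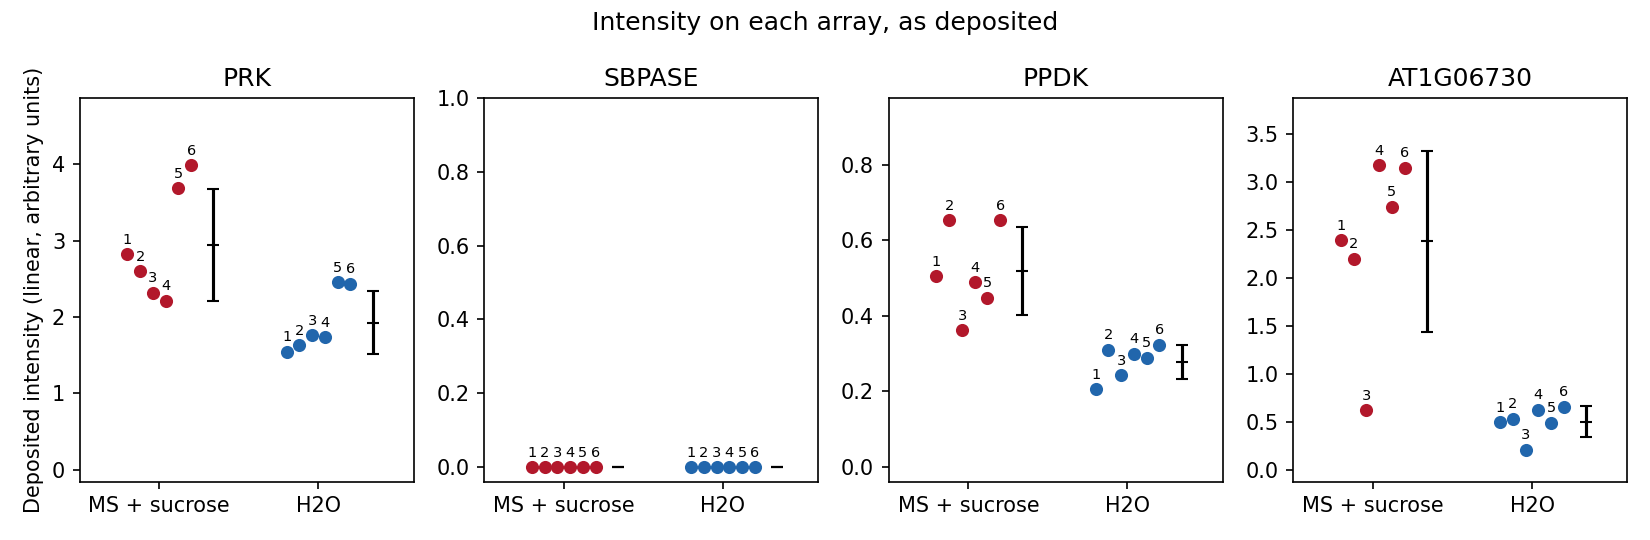
Deposited intensity (linear, arbitrary units) of the 4 genes on each of the 6 MS + sucrose arrays (red, left) and 6 H2O arrays (blue, right). Digits are array numbers and the black bars give mean and SD. For AT1G06730, array 3 lies lowest in both groups, at 0.624 in MS + sucrose and 0.209 in H2O, and SBPASE is at 0 on every array.

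PRK had deposited intensities of 2.83, 2.60, 2.32, 2.22, 3.69 and 3.99 on MS + sucrose arrays 1 to 6, against 1.54, 1.63, 1.76, 1.73, 2.46 and 2.44 on H2O arrays 1 to 6. Arrays 5 and 6 were the brightest of each group, and the groups overlapped, because sucrose arrays 3 and 4 lay below H2O arrays 5 and 6. The mean was 2.94 ± 0.736 in MS + sucrose and 1.93 ± 0.409 in H2O (SD, n = 6 each), with coefficients of variation of 25% in MS + sucrose and 21.2% in H2O. Every sucrose array exceeded the H2O array of its own number, by 0.35 to 0.87 on the log2 scale as deposited.

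After quantile normalization PRK was higher in MS + sucrose by 0.61 ± 0.15 (SE; limma, adjusted p = 0.0076), a fold of 1.53 with a 95% interval of 1.21 to 1.93, whereas with median centring it was at -0.50 (adjusted p = 0.092). The H2O arrays had the lower medians, so scaling every array to the mean of the array medians raised PRK on them and lowered it on the sucrose arrays. With the array number as a block, median centring called PRK lower (adjusted p = 0.015), as it did 29.3% of all probes, whereas with consecutive numbers averaged on that scale it did not pass (adjusted p = 0.34). As deposited the difference was 0.60 (adjusted p = 0.014), which is 0.09 below the median difference of all probes. The rank of PRK within its own array, which no scaling that keeps the order can change, was at the 95.1st to 97.0th percentile in MS + sucrose and at the 93.1st to 95.3rd in H2O. It was higher in the sucrose array of each of the 6 numbers, by 1.10 to 3.66 percentile points.

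The size of the PRK difference varied with the array numbers. After normalization it was 0.91 for numbers 1 and 2, 0.30 for 3 and 4, and 0.63 for 5 and 6, each pair taken alone. With consecutive numbers averaged, 3 against 3, the adjusted p was 0.13, beside 9.54% of all probes called higher in that fit, and it was also 0.13 without numbers 1 and 2. With consecutive numbers as a random block PRK passed (limma, adjusted p = 0.013). Sucrose arrays 1 and 2 are those with the highest medians, and the part of this in the PRK difference was not tested.

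SBPASE, which acts in the same regeneration phase as PRK, was listed at 0 on all 6 MS + sucrose arrays and all 6 H2O arrays. It shares this with 123 of the 3439 probes, itself included. How background was handled before deposit is not known here, so a listed 0 does not show that the transcript was missing. The probe was at the floor on every array in the fit and could show no difference.

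PPDK had deposited intensities of 0.504, 0.653, 0.361, 0.489, 0.448 and 0.652 on MS + sucrose arrays 1 to 6, against 0.206, 0.309, 0.243, 0.300, 0.289 and 0.323 on H2O arrays 1 to 6. All 6 sucrose arrays lay above all 6 H2O arrays on this scale, with means of 0.518 ± 0.116 in MS + sucrose and 0.278 ± 0.0449 in H2O (SD, n = 6 each). On the same scale limma called 53.7% of all probes higher, which counts calls and not probes whose arrays separate in this way. As deposited, the difference was 0.88 ± 0.16 (limma, adjusted p = 7.6e-04), and it exceeded the median difference of all probes by 0.20. It lay below the 1.10 by which the log2 array medians differed, and with median centring it was -0.21 (limma, adjusted p = 0.34). After quantile normalization it was -0.10 ± 0.16 (limma, adjusted p = 0.72), with a 95% interval of -0.46 to 0.26, so a change of PPDK relative to the other probes of up to 1.20-fold upward or to 0.729 of the H2O level downward lies within the error.

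Within its array, PPDK ranked at the 52.4th to 75.8th percentile in MS + sucrose and at the 56.0th to 69.4th in H2O, and the groups overlapped. The rank was lower in the sucrose array for 5 of 6 numbers and higher for number 6, by 7.50 percentile points. Number 6 also set the direction within numbers 5 and 6, where the normalized difference was 0.13. RefSeq lists 7 transcripts of PPDK and 1 of each of the other 3 genes. In Arabidopsis, PPDK makes a plastid form and a cytosolic form from different promoters, and these data hold 1 value for the gene.

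AT1G06730 had deposited intensities of 2.40, 2.20, 0.624, 3.18, 2.74 and 3.15 on MS + sucrose arrays 1 to 6, against 0.497, 0.531, 0.209, 0.628, 0.492 and 0.658 on H2O arrays 1 to 6. Array 3 was the lowest in both groups, and sucrose array 3 lay within the H2O range while the other 5 lay above all H2O arrays. The mean was 2.38 ± 0.947 in MS + sucrose and 0.502 ± 0.159 in H2O (SD, n = 6 each), with coefficients of variation of 39.7% in MS + sucrose and 31.7% in H2O. Without array 3 these coefficients were 16.0% in MS + sucrose and 13.7% in H2O (n = 5 each).

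The gene rose by 1.79 ± 0.45 on the log2 scale (limma, adjusted p = 0.0083), a fold of 3.47 with a 95% interval of 1.74 to 6.91. The difference was 2.16 as deposited (adjusted p = 0.0011), which is 1.48 above the median difference of all probes, and 1.07 with median centring (adjusted p = 0.065). With number 3 left out of both groups it was 2.02 ± 0.12 (adjusted p = 1.2e-05), and with median centring 1.16 (adjusted p = 0.0047). Number 3 is this gene's own outlying array in both groups, so the smaller errors and p-values follow from leaving it out and add no support. With the array number as a block the median-centred difference also passed (adjusted p = 0.0066). After quantile normalization AT1G06730 passed with consecutive numbers averaged (limma, adjusted p = 0.029), but not with them as a random block (adjusted p = 0.067). Nor did it pass without numbers 1 and 2 (adjusted p = 0.10) or within numbers 3 and 4 (1.41, adjusted p = 0.55).

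**Figure D2:**
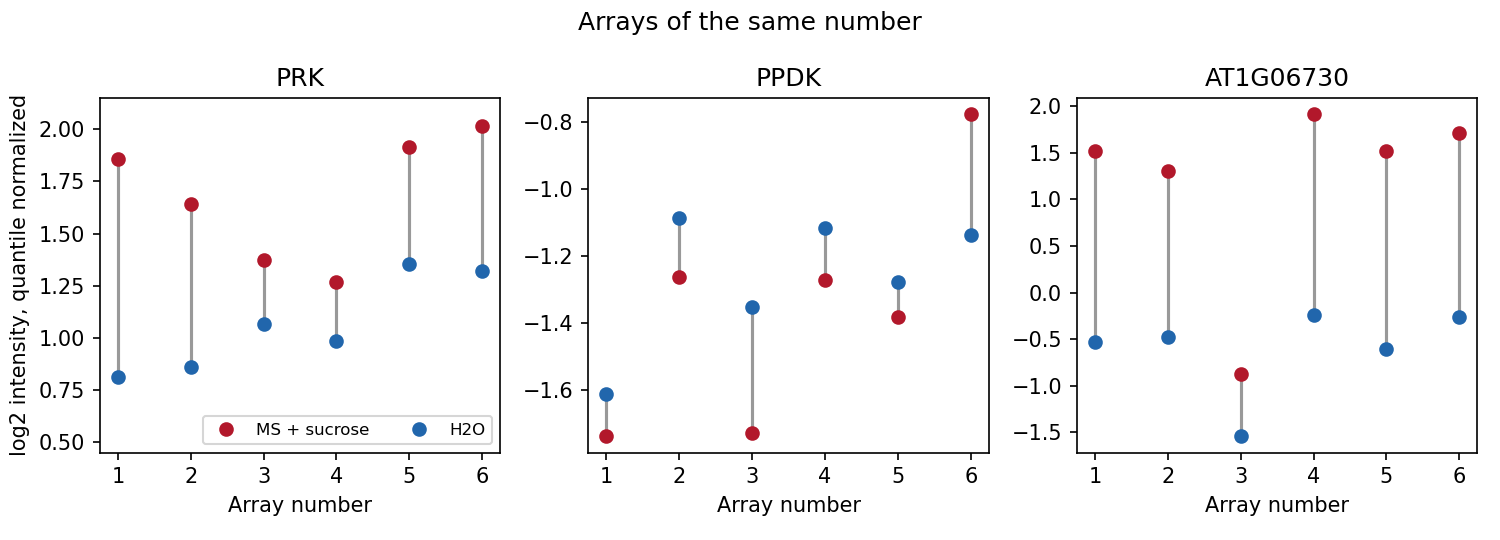
Quantile-normalized log2 intensity of PRK, PPDK and AT1G06730 on the MS + sucrose array (red) and the H2O array (blue) of each number, joined by a line. For PRK and AT1G06730 red lies above blue at all 6 numbers, and for PPDK at number 6 alone. The axes differ between the genes.

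The AT1G06730 difference was smallest at number 3 on the normalized scale and as deposited, but not by rank. Its normalized difference at the same number was 0.67 at number 3 and 1.78 to 2.16 at the other 5. As deposited, the log2 difference was 1.58 at number 3 and 2.05 to 2.48 at the other 5. On the scale of ranks, where 5 sucrose arrays had the gene above the 95th percentile, the difference at number 3 was 16.0 percentile points and those of the other numbers were 12.4 to 16.9. On sucrose array 3 its log2 value minus the median of its group was -2.39. Of the 2407 probes above the floor on all arrays, 1 other lay as far below, an unnamed probe at -2.66 that was singled out after its value was seen. Number 3 was the lowest array in both groups for 89 of these 2407 probes (3.70%).

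The array-to-array spread differed between the members. The residual SD of AT1G06730 was 0.80 on the log2 scale, larger than that of 97.6% of the 2407 probes above the floor on all arrays. Without number 3 in either group it was 0.20 (n = 5 each), larger than that of 17.6% of these probes. Over all arrays it was 0.27 for PRK and 0.29 for PPDK, larger than that of 37.0% and 43.7% of these probes, whose median was 0.31. PRK and PPDK thus varied about as much as the median probe. All 3 varied more among sucrose arrays than among H2O arrays, with SDs of 0.30 in MS + sucrose and 0.23 in H2O for PRK, 0.36 in MS + sucrose and 0.20 in H2O for PPDK, and 1.03 in MS + sucrose and 0.48 in H2O for AT1G06730. Without number 3, the SDs of AT1G06730 were 0.23 in MS + sucrose and 0.16 in H2O. The median SD over probes, with all arrays, was likewise 0.36 in MS + sucrose and 0.20 in H2O. Whether the spreads differed between the groups was not tested.

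**Figure D3:**
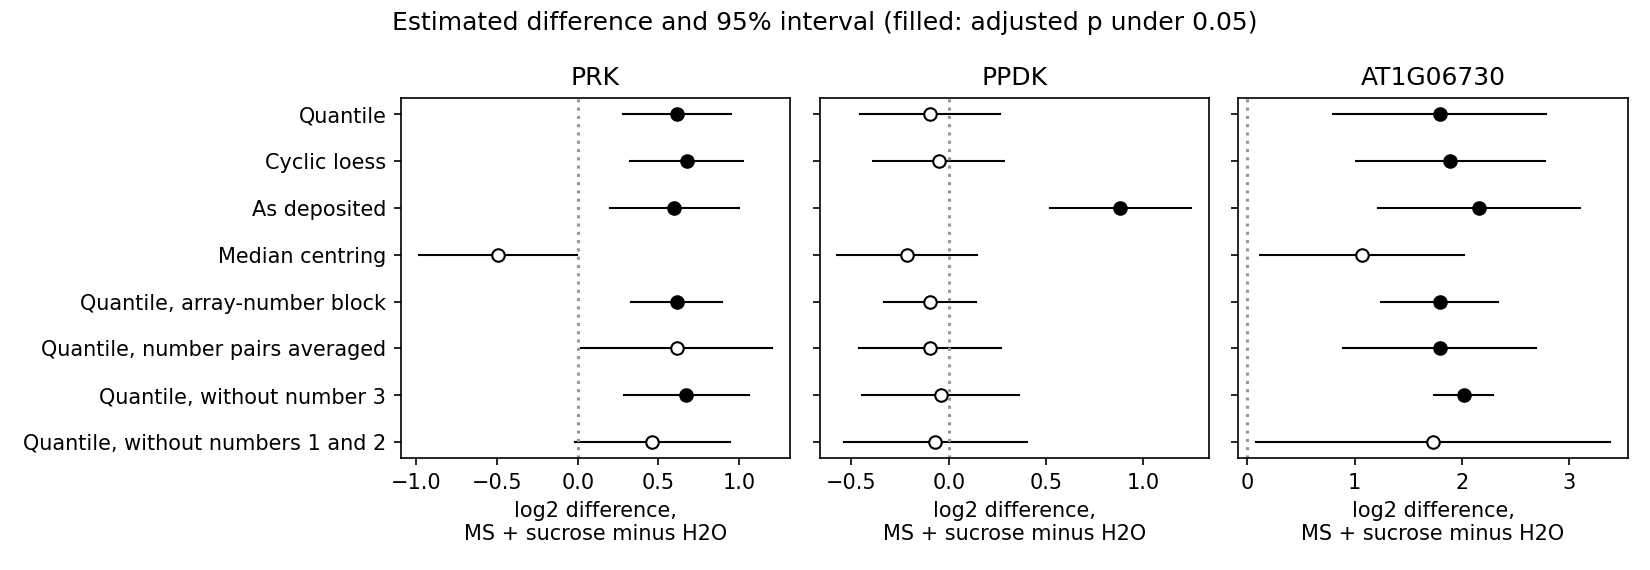
Difference of PRK, PPDK and AT1G06730 (log2 MS + sucrose minus H2O, horizontal axis) with its 95% interval from limma under 4 scalings and 4 other fits. Filled points have an adjusted p under 0.05. PRK moves to -0.50 with median centring and PPDK to 0.88 as deposited, whereas AT1G06730 stays between 1.07 and 2.16.

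Ratios of deposited intensities between members of the same array are unchanged when an array is multiplied by a constant, as in median centring, but not by quantile normalization or cyclic loess. Their own size has no meaning, since probes differ in brightness, and only the change between arrays is read. The log2 ratio of AT1G06730 over PRK was -1.89 to 0.52 in MS + sucrose, with a median of -0.29, against -3.08 to -1.47 in H2O, with a median of -1.76. It was higher in the sucrose array at all 6 numbers, by 1.57 on average, and 5 of 6 sucrose arrays lay above all H2O arrays, the exception being array 3. The ratio of AT1G06730 over PPDK had medians of 2.26 in MS + sucrose and 0.90 in H2O and was also higher at all 6 numbers, by 1.28 on average. The ratio of PRK over PPDK had medians of 2.55 in MS + sucrose and 2.88 in H2O. It was lower in the sucrose array at all 6 numbers, by 0.28 on average, while the groups overlapped. On the deposited scale PRK thus increased less than PPDK at every number, although after quantile normalization PRK was called higher and PPDK was not. These ratios were computed with the members' values known and are a description, with no test. They also carry any dependence of the deposited difference on brightness. As deposited, the 4 green tissue markers, with group means of 1.45 or more, differed by -0.09 to 0.20, where the median probe differed by 0.68. After quantile normalization they differed by -0.20 to 0.61, and 1 of them, PSBW, was called higher (0.61, limma, adjusted p = 0.0053). With median centring all 4 were called lower, at -1.18 to -0.90, beside 30.2% of all probes. PRK was brighter than PPDK on every array, and the part of brightness in the ratios was not tested.

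**Figure D4:**
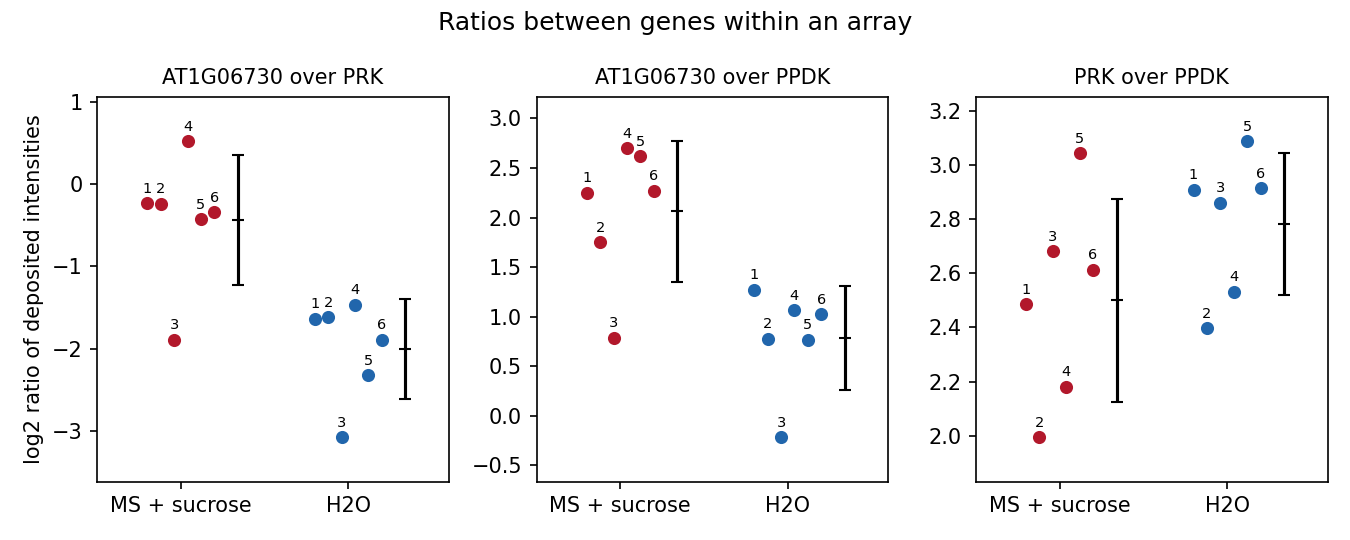
Log2 ratio of deposited intensities between pairs of genes on the same array, in MS + sucrose (red, left) and H2O (blue, right). Digits are array numbers and black bars give mean and SD (n = 6). For both ratios with AT1G06730 on top, the MS + sucrose arrays other than array 3 lie above all H2O arrays, and the ratio of PRK over PPDK overlaps between the groups.

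Few other genes of these pathways could be read. Of 131 genes listed for the Calvin cycle, pyruvate and phosphoenolpyruvate enzymes, pfkB kinases, upper glycolysis and the oxidative pentose phosphate pathway, 7 had a probe of their own, 3 appeared only on probes with several genes, and the annotation named no probe for the other 121. Of the 7, which include the 4 members, 2 were called higher and 1 lower, beside 20.5% of all probes called higher and 21.3% called lower. With median centring 0 of the 7 were called higher and 1 was called lower, AT1G17160, beside 16.2% and 30.2% of all probes. In the Calvin cycle list PRK and SBPASE were the measured genes, 2 of 25, and in the upper glycolysis list 0 of 38.

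AT1G17160, which encodes the plastid ribokinase and is the other pfkB gene with a probe of its own, had intensities of 2.11 to 2.56 in MS + sucrose (median 2.20) and 1.89 to 2.47 in H2O (median 2.05). The groups overlapped, and the difference was 0.12 ± 0.12 (limma, adjusted p = 0.47), or -0.98 with median centring (adjusted p = 1.2e-05). AT5G17630, the plastid transporter that exchanges xylulose 5-phosphate for phosphate, was called lower after quantile normalization, at -0.74 ± 0.24 (limma, adjusted p = 0.030). Its deposited intensity was 0.0562 to 0.246 in MS + sucrose (median 0.165) and 0.0926 to 0.137 in H2O (median 0.105), so its direction was opposite as deposited (0.41, adjusted p = 0.33), and 1 sucrose array was at the floor. AT1G12230, a transaldolase gene, was at the floor on 10 of 12 arrays.

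Genes whose profile was most like a member's were searched among the 485 other genes with a probe of their own above the floor on all arrays. Likeness was the root-mean-square distance between log2 profiles over the 12 arrays, each centred on its mean, so a small value means profiles that move alike, and arrays share their normalization. Nearest to PRK were AT4G22490, AT4G17070 and AT2G46050, at 0.20, 0.22 and 0.22, where the median gene was at 0.57. Their differences after quantile normalization were 0.72, 0.48 and 0.47, the last not called (limma, adjusted p = 0.079). As deposited they were 1.38, 0.01 and 1.48, and with median centring 0.29, -1.08 and 0.38. Nearest to PPDK were THIC (AT2G29630), which makes the pyrimidine part of thiamine, CCL (AT3G26740) and AT1G62150, at 0.19, 0.22 and 0.23, with the median gene at 0.52. The differences of these last 3 were -0.03, -0.13 and -0.11, near that of PPDK, as the choice by profile favours. AT1G06730 had no close neighbour over the 12 arrays: AT1G12800, AT3G13150 and AT2G28755 were at 0.69, 0.70 and 0.72, with the median gene at 1.20. Its array 3 enters these distances, at -2.39 from the group median in MS + sucrose and -1.04 in H2O. Distances without array 3 were not computed. AT1G12800, the nearest gene, had a difference of 1.70 ± 0.12 (SE), again favoured by the choice.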

How the data were processed

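The authors deposited 1 intensity per probe and array on a linear scale, with exact zeros, no negative value and a highest value near 100 on every array. Spot reading, background correction and scaling are not described in the labels, and the unit was inferred from the values. Precision is limited by the number of arrays. GEO's annotation, which can be old, paired 692 of 3439 probes with 1 gene. Loci came from a RefSeq table of TAIR10.1, used for names alone. The members, lists and alternatives were chosen with earlier results of these data known.

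Arrays were brought to a common median, given a floor at 0.0531 (the 5th percentile of the values above 0), log2 transformed and quantile normalized. This understates changes of dim probes. Groups were compared with limma 3.58.1 (lmFit, eBayes, R 4.3.3) over all probes, at an adjusted p of 0.05. The fit was tried on simulated data with independent arrays, which lack the likeness of arrays of the same or consecutive numbers and so do not test its effect. Named genes were the members, listed genes with a probe of their own and the 3 genes nearest to a member in profile.

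Arrays are numbered 1 to 6 in both groups. Arrays of 1 number deviated together from their groups (correlations of 0.19 to 0.43 over probes, each over 0.1), so values were also compared number by number. The main fit was unpaired, and the fit blocked on the number is given where it changes a call. Consecutive numbers (1 and 2, 3 and 4, 5 and 6) resemble each other, which the labels do not explain. Combinations of a scaling with another choice were added after seeing the data. Figures used matplotlib 3.10.9.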

Additional observations from a re-analysis of the deposited data

Results flagged for a closer look

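AT1G06730 had 1 array far from the other 5 in each group, and it was number 3 both times. In MS + sucrose, array 3 was at -0.87 (normalized log2) and the other 5 at 1.31 to 1.91, a gap to the next array of 0.781 of the whole range, past Dixon's limit for 6 values. In H2O, array 3 was at -1.54 and the others at -0.60 to -0.24, a gap of 0.722 of the range, past it too. The 6 sets of 6 arrays searched were PRK, PPDK and AT1G06730 in both groups, and about 1 set in 20 is expected to show such an array by chance. PRK and PPDK had no such array.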

How the results depend on the processing

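Of 102 member differences under alternatives, 84 had the same direction and stayed on the same side of the threshold, among them all 36 with 1 array left out. Those ranged from 0.55 to 0.70 for PRK, from -0.21 to -0.02 for PPDK and from 1.61 to 2.20 for AT1G06730. The count of 1436 called probes ranged from 1320 to 1470 with 1 array left out. It was 730 with number pairs averaged, 1114 within numbers 1 and 2, 750 within numbers 3 and 4, 674 within numbers 5 and 6, and 2075 as deposited. Higher calls were 705 of 1436 after quantile normalization, 1848 of 2075 as deposited and 558 of 1597 with median centring. PRK reversed to -0.50 with median centring, the replicate block or number pairs averaged on that scale included, and to -0.48 with number 3 left out as well. It lost the threshold at 0.61 with number pairs averaged, 0.60 with these as deposited, 0.30 within numbers 3 and 4, and 0.46 without numbers 1 and 2. PPDK reversed to 0.88 as deposited, the block or number pairs averaged included, to 0.94 without number 3 on that scale, and to 0.13 within numbers 5 and 6. AT1G06730 lost the threshold at 1.07 with median centring, number pairs averaged included, at 1.79 with number pairs as a random block, 1.41 within numbers 3 and 4, and 1.73 without numbers 1 and 2. The cause was not tested. With the replicate block 1383 probes were called, 1278 of them shared, and on the quantile scale the block changed no member's call.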
